A study of Mus musculus with 3 samples.

Results

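The Myc locus of mouse epidermis was described by the HDAC3 and KLF4 peaks that lie closer to an end of Myc than to an end of any other protein-coding gene. Of 57936 deposited HDAC3 peaks 64 met this rule, and of 47155 deposited KLF4 peaks 43 did. These 107 of 105091 peaks were chosen by peak positions, and Myc was selected on the number of peaks it collects, so the counts are a description and were not tested. The dorsal epidermis came from wild-type mouse embryos (E18.5), and its chromatin gave 3 chromatin immunoprecipitation sequencing (ChIP-seq) libraries: HDAC3 precipitated with Abcam ab7030, KLF4 precipitated with R&D AF3158, and input DNA with no antibody. No strain, allele or treatment is named in the labels, and whether embryos were pooled is not stated. Each antibody had 1 library, so there was no replicate spread, and no difference between the libraries could be tested.

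Myc encodes a basic helix-loop-helix leucine zipper transcription factor that pairs with MAX and binds the E-box CACGTG, where it drives genes of growth, ribosome production and cell division. In the epidermis it is known from the proliferating basal layer and from keratinocytes that leave it to differentiate. HDAC3 is a histone deacetylase that works in complexes with the corepressors NCoR and SMRT, and KLF4 is a zinc finger factor without which mice form no working skin barrier. Myc is flanked by long tracts without protein-coding genes, and in mice such tracts are known to hold enhancers that act on Myc in particular tissues. Pvt1, a long noncoding RNA gene, is the neighbour of Myc on one side, and in human breast cancer cells the Pvt1 promoter is known to compete with the MYC promoter for enhancers.

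On the GRCm38.p6 gene table Myc (gene 17869) occupies chr15:61985341-61990361. The next protein-coding gene on the lower side is A1bg, which ends 1064071 bp away, and on the upper side Gsdmc, which starts 1785610 bp away. The sequence nearer to Myc than to these genes therefore runs over 1.43 Mb, chr15:61453306-62883166, and is called the Myc stretch here. It reaches 532.0 kb from Myc towards A1bg and 892.8 kb from Myc through Pvt1 towards Gsdmc. Both ends of the stretch are midpoints between genes, not features of the chromatin.

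Peaks of both factors were spread over the stretch, and KLF4 had 1 peak inside Myc. Neither factor had a peak centred within 1 kb of either end of Myc. Of 21887 protein-coding genes, 18.9% carried HDAC3 in that window and 23.1% carried KLF4, so most genes lacked such a peak. KLF4 came closer to the gene than HDAC3: a KLF4 peak of score 114 at chr15:61989026-61989210 was centred inside Myc, 1243 bp from its upper end, and another of score 84 at chr15:61983321-61983505 was centred 1928 bp outside its lower end. The score is the tag number that the authors' caller assigned to a peak, and it ranks peaks within 1 list only. The peak inside Myc was 7.43-fold over input, with 77.4% of all KLF4 peaks scoring lower, and the one outside was 7.51-fold over input, with 63.8% scoring lower. The nearest HDAC3 peaks were centred 8647 bp outside Myc on the Pvt1 side (score 41, 9.46-fold over input) and 11169 bp outside on the A1bg side (score 18, 6.61-fold over input). The last was just above the caller's threshold of 16 tags for HDAC3.

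**Figure D1:**
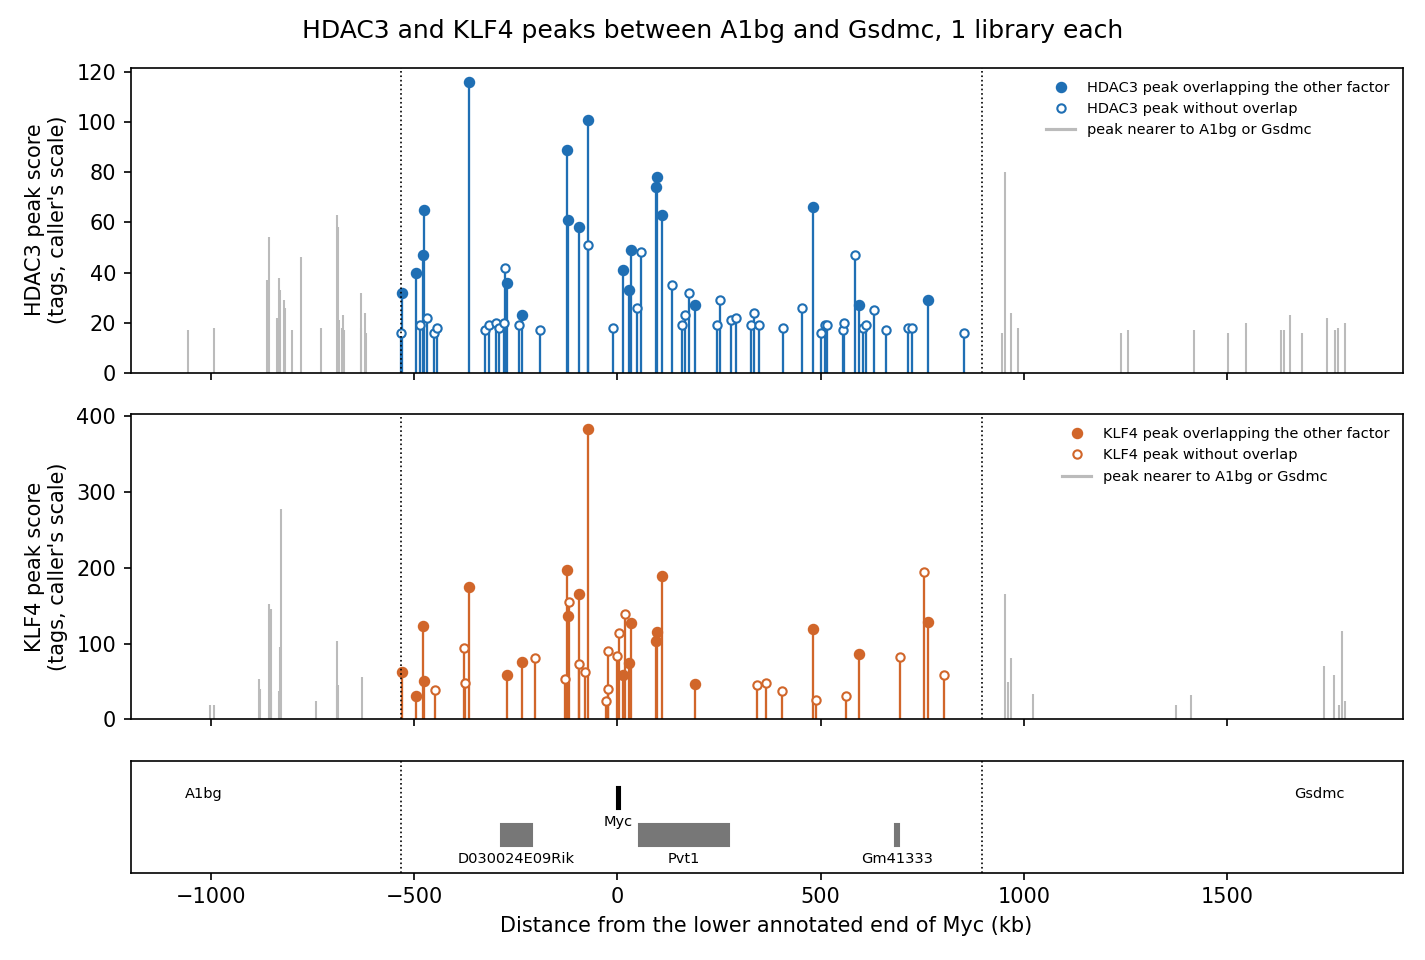
HDAC3 peak scores (upper panel) and KLF4 peak scores (middle panel) between A1bg and Gsdmc, against the distance from the lower annotated end of Myc in kb, with annotated genes in the lowest panel. Filled circles are members that overlap a peak of the other factor, open circles are members that do not, grey lines are peaks nearer to another gene and dotted lines bound the stretch; the highest HDAC3 member scores 116 and the highest KLF4 member 384, both on the A1bg side.

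The 5 highest members of each list were centred 71.6 kb or more from Myc. For HDAC3 the highest scored 116 and was centred 366 kb from Myc on the A1bg side, at chr15:61619130-61619314, where it was 19.33-fold over input and ranked 408 of 57936. Next came scores of 101 at 71.6 kb and 89 at 125 kb on the same side. Scores of 78 and 74 followed at 93.2 and 89.3 kb on the Pvt1 side, inside Pvt1. Each of these 5 HDAC3 peaks overlapped a KLF4 peak. For KLF4 the highest scored 384 and was centred 71.6 kb from Myc on the A1bg side, at chr15:61913681-61913865, 21.01-fold over input and ranked 426 of 47155. The next KLF4 scores were 197 at 125 kb on the A1bg side, 194 at 750 kb and 189 at 104 kb on the Pvt1 side, and 175 at 366 kb on the A1bg side. Of these 5, only the KLF4 peak at 750 kb had no overlapping HDAC3 peak; the nearest HDAC3 centre was 8111 bp away.

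Member scores ran from 16 to 116 for HDAC3, in a list that ran from 16 to 245, and from 24 to 384 for KLF4, in a list that ran from 19 to 824. The HDAC3 members had a median score of 23 (quartiles 19 and 41.2), against 22 over all HDAC3 peaks on chromosomes. Of the 64 HDAC3 members 35 scored at or above the median of their list (54.7%, against 50.1% of all HDAC3 peaks), and 10 were in its highest decile (15.6%, against 10.2%, ties included). The KLF4 members had a median score of 81 (quartiles 49.5 and 125), against 65 over all KLF4 peaks. Of the 43 KLF4 members 25 scored at or above the list median (58.1%, against 50.1%), and 5 were in the highest decile (11.6%, against 10.1%). Enrichment of at least 8-fold over input was reached by 34 HDAC3 members (53.1%, against 41.7% of all HDAC3 peaks) and 25 KLF4 members (58.1%, against 54.4%). Peaks far from genes offer a closer comparison: over 50 kb from any protein-coding gene end the median score was 20 for HDAC3 and 55 for KLF4 across the genome, against 22 for the 59 HDAC3 members and 78.5 for the 34 KLF4 members that far from Myc.

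HDAC3 and KLF4 peaks overlapped by at least 1 bp at 21 places in the stretch. These pairs were 32.8% of the HDAC3 members (95% exact Clopper-Pearson interval 21.6 to 45.7) and 48.8% of the KLF4 members (33.3 to 64.5). Over all peaks on chromosomes, 25.8% of HDAC3 peaks and 31.7% of KLF4 peaks overlapped a peak of the other factor by at least 1 bp. Among peaks over 50 kb from a gene end the shares were 30.5% of HDAC3 members and 18.8% of all such HDAC3 peaks, and 52.9% of KLF4 members and 31.5% of all such KLF4 peaks. The intervals cover counting error alone, and neighbouring peaks share their surroundings, so they are not independent draws. Both lists were called against the same input library.

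The pair with the highest scores together was the one 71.6 kb from Myc on the A1bg side. Its HDAC3 peak, chr15:61913617-61913801, scored 101 and had 57.7 tags after scaling to the input, against 9 input tags (6.42-fold). Its KLF4 peak, centred 64 bp away, scored 384 and had 189.1 scaled tags against 9 input tags. These were the highest input values among the members, shared with the pair 104 kb from Myc inside Pvt1. The pair at 125 kb on the A1bg side scored 89 for HDAC3 and 197 for KLF4, and the pair at 366 kb scored 116 and 175. Inside Pvt1 the pair at 104 kb scored 63 for HDAC3 and 189 for KLF4, and the pair at 93.2 kb scored 78 and 115. The pair at 475 kb on the Pvt1 side had very little input: its HDAC3 peak scored 66 and was 41.60-fold over 1 input tag, and its KLF4 peak scored 119 and was 102.24-fold over an input of 0, written as 0.5 in the list. Folds over so few input tags are imprecise.

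Closest to the gene, a group of 3 pairs lay on the Pvt1 side between Myc and Pvt1. The pair at 8.65 kb scored 41 for HDAC3 and 58 for KLF4. The pair at 22.2 kb scored 33 for HDAC3 and 75 for KLF4, and the pair at 27.4 kb scored 49 and 127. A KLF4 peak of score 139 stood among them at 13.8 kb, chr15:62004101-62004285, with the nearest HDAC3 centre 5185 bp away. The next HDAC3 peaks outwards, of scores 26 at 43.0 kb and 48 at 53.6 kb, the second inside Pvt1, overlapped no KLF4 peak. On the A1bg side no pair lay closer to Myc than 71.6 kb, and the 4 KLF4 peaks within 50 kb there, with scores of 84, 90, 40 and 24, lay 9241 bp or more from the nearest HDAC3 centre.

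Peak centres in the 21 pairs lay further apart in the median than in the pairs of the whole lists, while the upper quartiles were close. The median distance between centres was 52 bp (quartiles 22 and 64, range 4 to 165), against 31 bp over all pairs (quartiles 14 and 59). Of the 21, 9 (42.9%, exact interval 21.8 to 66.0) had centres at most 50 bp apart, against 69.5% of all 14962 pairs. This share depends on the limit, since further pairs had distances of 51, 52, 53 and 57 bp. Pairs over 50 kb from a gene end were not compared separately. The normalised tag signal, set by the authors to 10000000 tags per library, was higher for KLF4 than for HDAC3 in 18 of the 21 pairs, and in 12014 of all 14962 pairs. The median ratio of the KLF4 to the HDAC3 signal was 1.5 in the stretch and 1.53 over all pairs; different antibodies were used, so the ratio does not compare the amounts of the proteins. In the pairs at 476, 496 and 8.65 kb the HDAC3 signal was the higher. Across the 21 pairs the Spearman correlation between HDAC3 and KLF4 scores was 0.585, against 0.719 over all pairs; this is a description across sites that share the same libraries and input.

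**Figure D2:**
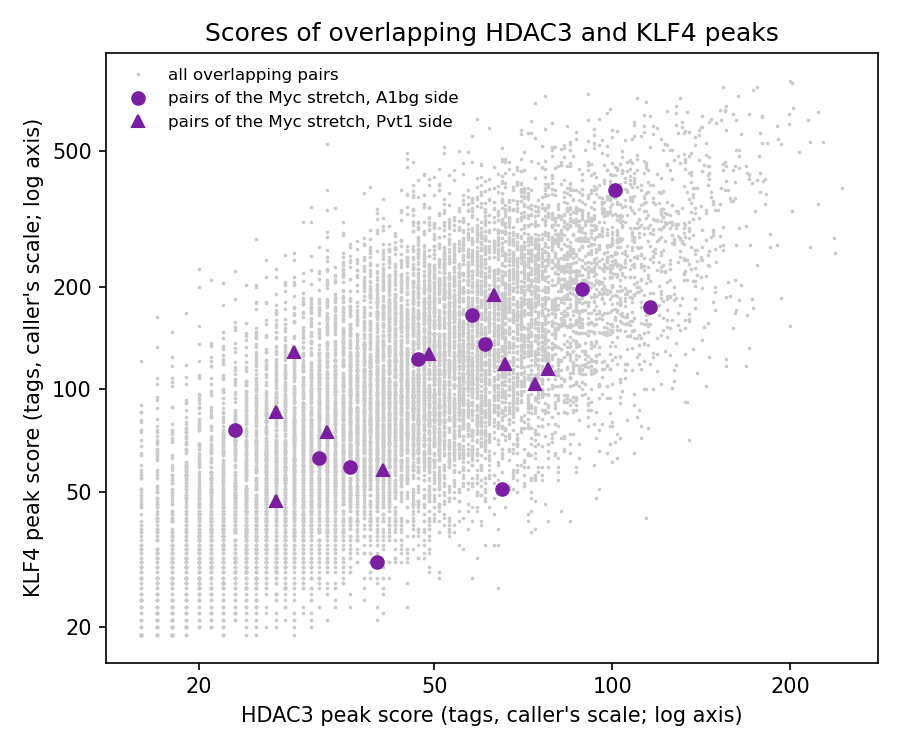
KLF4 peak score against HDAC3 peak score for overlapping pairs, both axes logarithmic; grey points are all 14962 pairs, circles the 11 pairs of the stretch on the A1bg side and triangles the 10 on the Pvt1 side. The members lie within the cloud of all pairs, with the pair of scores 101 and 384 uppermost.

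Shared members scored higher than unshared ones, and so did shared peaks over the whole lists, where the median score was 43 for shared and 20 for unshared HDAC3 peaks, and 93 for shared and 56 for unshared KLF4 peaks. The median score of the HDAC3 members that overlapped KLF4 was 49 (range 23 to 116), against 19 among the 43 that did not (range 16 to 51). All 10 HDAC3 members of the highest decile were shared, as were 5104 of the 5898 such peaks in the whole list. Of the 43 unshared HDAC3 members 28 scored within 4 tags of the threshold, as did 24839 of all 42958 unshared HDAC3 peaks. The median fold over input was 8.81 for shared and 8.16 for unshared HDAC3 members. The KLF4 members with an overlapping HDAC3 peak scored 115 in the median (range 31 to 384), against 60.5 for the 22 without (range 24 to 194), and the ranges overlapped widely. The highest unshared HDAC3 member, of score 51, was centred 1517 bp from the KLF4 peak of score 384. Of the 43 unshared HDAC3 members 19 were more than 20 kb from the nearest KLF4 centre, and 1 of the 22 unshared KLF4 members was that far from HDAC3. These shares were not computed over the whole lists. The stretch also held fewer KLF4 peaks (43) than HDAC3 peaks (64), so they are not read as a trait of the members.

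KLF4 peaks were denser on the A1bg side than on the Pvt1 side, and HDAC3 peaks differed less between the sides. Over the stretch HDAC3 had 44.8 peaks per Mb and KLF4 30.1, against 21.5 and 17.5 over the genome between the outermost gene ends. HDAC3 density was 48.9 per Mb on the A1bg side (26 peaks) and 42.6 on the Pvt1 side (38 peaks). KLF4 density was 43.2 per Mb on the A1bg side (23 peaks) and 21.3 on the Pvt1 side (19 peaks). Within 100 kb of Myc there were 11 HDAC3 and 15 KLF4 peaks, or 53.7 and 73.2 per Mb. The KLF4 list had a gap of 152 kb on the Pvt1 side, which held no peak between the one at 186 kb, inside Pvt1, and the one at 338 kb; HDAC3 peaks stood in that gap, with scores of 19, 29, 21, 22, 19 and 24. The largest HDAC3 gap was 88.8 kb, near the Gsdmc end of the stretch.

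**Figure D3:**
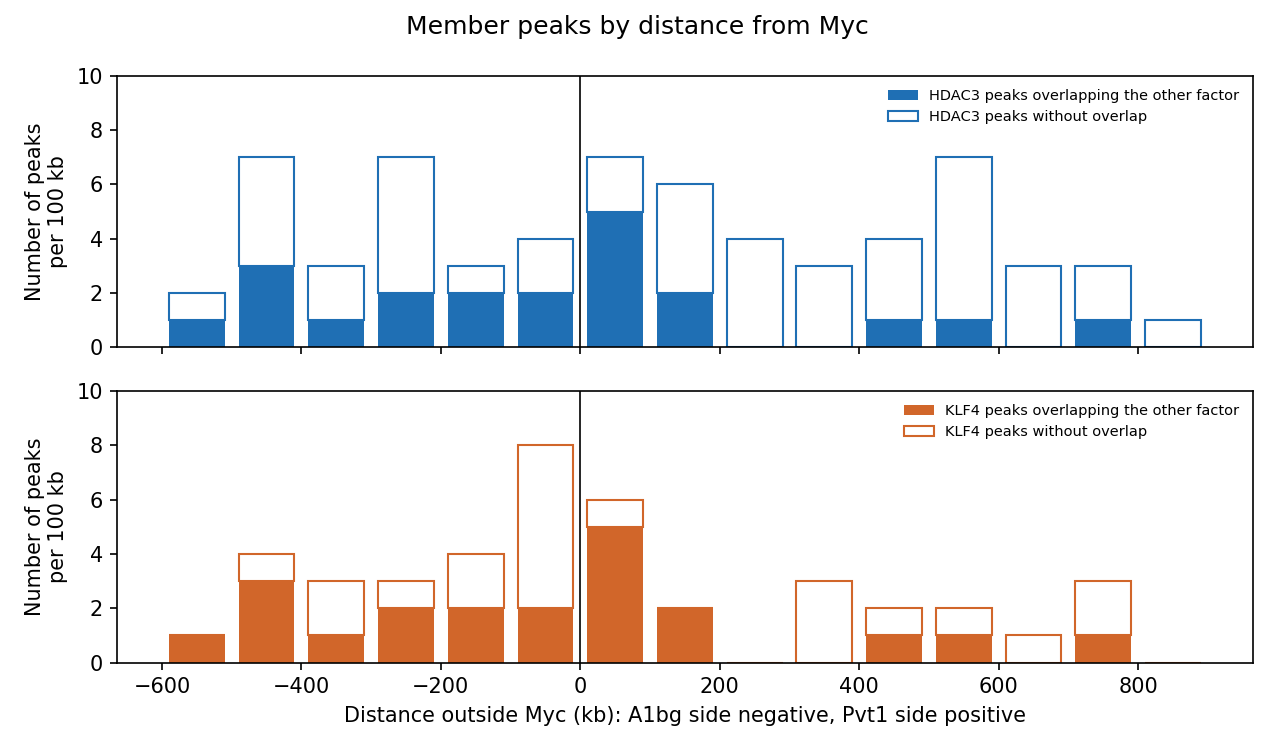
Number of HDAC3 members (upper panel) and KLF4 members (lower panel) in 100 kb intervals on either side of Myc, with filled parts for peaks that overlap the other factor. The outermost intervals are cut by the ends of the stretch, at 532.0 and 892.8 kb, and the KLF4 peak inside Myc is in no interval; the interval nearest to Myc on the A1bg side holds 4 HDAC3 and 8 KLF4 peaks, and the one on the Pvt1 side 7 and 6.

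HDAC3 peaks within 100 kb of Myc scored higher in the median than those beyond, and KLF4 peaks differed less. The 11 HDAC3 members within 100 kb of Myc scored 49 in the median, against 20 for the 53 beyond, and 7 of the 11 were shared, against 14 of the 53. Input moved with this: the median was 5 input tags within 100 kb and 2 beyond, and the median fold over input was 7.67 within 100 kb and 8.81 beyond. The part of input in the difference in scores was not tested. The 15 KLF4 members within 100 kb scored 90 in the median, against 69.5 for the 28 beyond, with medians of 5 and 4 input tags and of 10.2-fold and 9.62-fold over input. Of the KLF4 members 7 of the 15 within 100 kb were shared, against 14 of the 28 beyond. In the highest decile were 1 of the 15 within 100 kb (6.67%) and 4 of the 28 beyond (14.3%), counts too small to compare. The split at 100 kb was not made over the whole lists. Across the genome, HDAC3 peaks over 50 kb from a gene end had a median score of 20, against 22 over all HDAC3 peaks, and 18.8% against 25.8% were shared. For KLF4 the medians were 55 and 65, and the shares 31.5% and 31.7%. The differences within the stretch are therefore not read as particular to Myc.

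Noncoding genes held 16 of the HDAC3 members and 6 of the KLF4 members. Pvt1 (chr15:62037986-62260215) contained 11 HDAC3 peaks, with scores from 19 to 78, and 4 KLF4 peaks, with scores of 104, 115, 189 and 47. All 4 KLF4 peaks overlapped an HDAC3 peak (exact interval 39.8 to 100%), and 4 of the 11 HDAC3 peaks overlapped KLF4. Per Mb, Pvt1 held 49.5 HDAC3 and 18.0 KLF4 peaks, against 44.8 and 30.1 over the stretch and 21.5 and 17.5 over the genome. Neither factor had a peak within 1 kb of an end of Pvt1. The long noncoding RNA gene D030024E09Rik (chr15:61699284-61774451) contained 5 HDAC3 peaks, with scores up to 42, and 2 KLF4 peaks, of scores 59 and 76, both shared. The pseudogene Gm18788 had a KLF4 peak of score 90 centred within 1 kb of an end. The remaining annotated noncoding genes of the stretch, Gm18154, Macroh2a3, Gm41333 and Gm22521, contained no peak of either factor. When ends of noncoding genes and pseudogenes also counted, 2 HDAC3 and 5 KLF4 peaks were still nearest to an end of Myc. The deposited values do not show which gene a distant peak acts on.

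Towards A1bg the outermost HDAC3 member scored 16 at 532 kb, and the first HDAC3 peak outside also scored 16, 445 kb from A1bg. The outermost KLF4 member there scored 63, and the first KLF4 peak outside scored 56. Towards Gsdmc the outermost members scored 16 for HDAC3 and 58 for KLF4, and the first peaks outside scored 16 and 166. The part between the edge and A1bg held 41.4 HDAC3 and 28.2 KLF4 peaks per Mb, close to the stretch itself, and the part between the edge and Gsdmc held 19.0 and 12.3.

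Set beside other genes, Myc was high in the number of nearest peaks. It ranked 3 of 21887 protein-coding genes by HDAC3 peaks, behind Epha4 with 73 and Adgrl2 with 66, and 10 by KLF4 peaks. With 21 pairs it tied with Cited2, behind Klf4 with 28, Tle3 with 25 and Actl7b with 22. The median gene had 1 HDAC3 and 1 KLF4 peak, and 64.8% of genes were nearest to at least 1 HDAC3 peak and 59.2% to at least 1 KLF4 peak. Long stretches collect more peaks, and that of Myc ranked 168 by length. Among the 654 genes with a stretch at least 50% as long, the median gene had 7 HDAC3 and 2 KLF4 peaks, and the median densities were 5.74 and 2.17 per Mb, against 44.8 and 30.1 at Myc. The 654 include genes on chromosome Y, such as Gm20810 and Gm21065, with no peak of either factor, and such genes lower these medians. Myc ranked 13 by HDAC3 density and 16 by KLF4 density among these 654. Over all genes it ranked 6381 and 8283 by density; short stretches with few peaks can be dense. Since Myc was chosen with such counts in view, these ranks are no test.

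The 5 genes with the most similar numbers of HDAC3 peaks, KLF4 peaks and pairs, by Euclidean distance on log2(number + 1), were Adgrl2, Gata3, Zfp608, Cited2 and Actl7b. Adgrl2, an adhesion G protein-coupled receptor gene, had 66 HDAC3 peaks, 50 KLF4 peaks and 18 pairs (distance 0.303). Gata3, a transcription factor gene of the epidermis and hair follicle, had 61, 56 and 20 (0.386). Zfp608 had 56, 35 and 17 (0.451), Cited2, a transcriptional coregulator gene, 44, 45 and 21 (0.534), and Actl7b 43, 42 and 22 (0.568). Their stretches ran from 0.606 Mb at Actl7b to 2.31 Mb at Adgrl2.

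**Figure D4:**
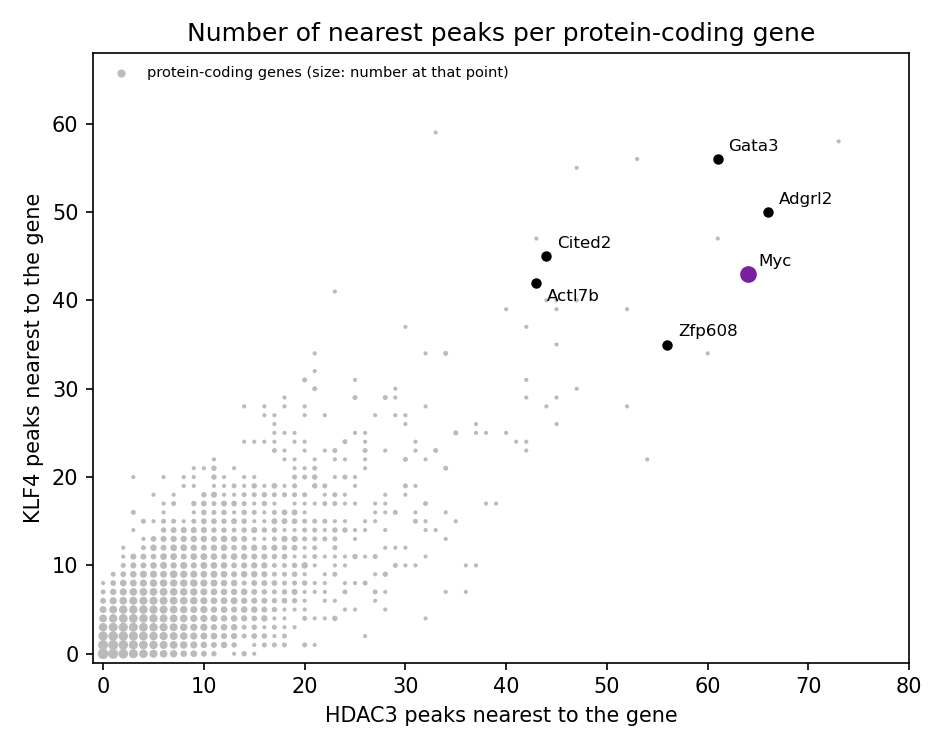
KLF4 peaks against HDAC3 peaks nearest to each of 21887 protein-coding genes; grey points grow with the number of genes at that position, black points are the 5 genes most similar to Myc and the purple point is Myc. Myc lies at 64 HDAC3 and 43 KLF4 peaks. The 5 genes were picked for their similarity to Myc on log2 numbers that include pairs, which are not plotted. Other genes can therefore lie nearer to Myc here, such as Ofcc1 at 61 HDAC3 and 47 KLF4 peaks.

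For genes that act with MYC, the share with a KLF4 peak at a gene end was near that of all genes, and the share with an HDAC3 peak was below it. Of 31 genes for dimer partners, antagonists, cofactors and turnover factors, Myc included, 3 had an HDAC3 peak within 1 kb of an end (9.68%, against 18.9% of all protein-coding genes) and 7 a KLF4 peak (22.6%, against 23.1%). Within 5 kb of an end the order turned: HDAC3 was at 58.1% of the 31, against 46.2% of all genes, and KLF4 at 64.5%, against 46.0%. Within 1 kb, HDAC3 was at Mycl (score 33), a paralogue of Myc, at Mga (27), which encodes a MAX partner, and at Bin1 (26), which encodes a MYC-interacting adaptor. The highest KLF4 gene-end scores were at Mnt (159) and Mxd4 (83), whose products compete with MYC for MAX, and at the acetyltransferase gene Kat2a (77). Max had no gene-end peak and was nearest to 6 HDAC3 and 13 KLF4 peaks, with 3 pairs. Fbxw7, which encodes the ubiquitin ligase subunit that marks MYC for destruction, had no gene-end peak and was nearest to 24 HDAC3 and 20 KLF4 peaks.

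Of 35 genes widely described as activated or repressed by MYC, 10 had an HDAC3 gene-end peak (28.6%, against 18.9%) and 14 a KLF4 peak (40.0%, against 23.1%); 7 genes had both, against 10.3% of all genes. Eif4a1, a translation initiation helicase gene, had the highest scores of both factors within 1 kb of an end (HDAC3 81, KLF4 269). Both of these peaks were nearest to an end of another gene. Those nearest to Eif4a1 itself scored at most 57 for HDAC3 and 141 for KLF4. Pa2g4 (HDAC3 58) and Prmt5 (HDAC3 51) followed for HDAC3. Cdkn1a, which encodes the cell cycle inhibitor p21 and is repressed by MYC, had a KLF4 peak of score 131 and no HDAC3 peak there. The serine metabolism gene Shmt2 had a KLF4 gene-end peak of score 112, which was nearest to another gene. The KLF4 peak nearest to Shmt2 scored 54. Srm, Bop1, Hspd1 and Hspe1 had no peak of either factor nearest to them.

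Of 25 genes for the 2 precipitated proteins, the corepressors of HDAC3 and factors that act on Myc or epidermal growth, 7 had an HDAC3 gene-end peak (28.0%, against 18.9%) and 8 a KLF4 peak (32.0%, against 23.1%), 4 of them both. Stat3 had the highest scores of both factors (HDAC3 129, KLF4 334). Klf4 itself (58) and Tcf7l2 (38), a mediator of Wnt signalling, followed for HDAC3, and Ovol1 (171) and the TGF-beta receptor gene Tgfbr2 (103) for KLF4. Hdac3 had no peak of either factor nearest to it. Neighbouring genes can share a gene-end peak, and with lists this short a few peaks move each share.

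Promoter sequences are shown for 3 of these genes, Mxd4, Cdkn1a and Stat3, as examples. In each, a KLF4 peak was centred in the 250 bases before a RefSeq start (GRCm38.p6), and a motif lay in the same bases. The 3 were chosen after their values were seen. Of 91 listed genes 73 had a promoter in the RefSeq table; a KLF4 peak was centred in that window at 12, an HDAC3 peak at 4 and both at 3. Of the 12 with a KLF4 peak, 2 held CACGTG, 2 held CCACCC and 8 held neither. The CACGTG window not shown was that of Kat5, with a KLF4 peak of score 79 and an HDAC3 peak of score 62. Capitals mark the E-box CACGTG and the KLF core CCACCC, read on both strands (GGGTGG is CCACCC on the other strand).
Mxd4, chr5:34187711-34187960, minus strand: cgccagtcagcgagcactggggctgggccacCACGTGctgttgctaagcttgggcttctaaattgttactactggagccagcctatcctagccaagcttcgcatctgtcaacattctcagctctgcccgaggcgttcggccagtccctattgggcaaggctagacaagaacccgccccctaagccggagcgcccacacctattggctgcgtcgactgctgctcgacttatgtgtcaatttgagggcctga
Cdkn1a, chr17:29090729-29090978, plus strand: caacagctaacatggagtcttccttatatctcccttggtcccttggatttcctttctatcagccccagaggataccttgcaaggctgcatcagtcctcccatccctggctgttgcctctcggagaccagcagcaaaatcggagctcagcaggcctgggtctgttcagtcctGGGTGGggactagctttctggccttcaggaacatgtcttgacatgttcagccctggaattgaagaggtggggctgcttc
Stat3, chr11:100939541-100939790, minus strand: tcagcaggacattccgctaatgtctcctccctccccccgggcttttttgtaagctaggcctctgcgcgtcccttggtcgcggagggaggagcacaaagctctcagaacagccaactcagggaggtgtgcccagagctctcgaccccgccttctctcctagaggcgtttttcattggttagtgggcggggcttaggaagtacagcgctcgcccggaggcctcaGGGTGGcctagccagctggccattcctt
In Mxd4 the E-box ended 214 bases before the start and 78 bp from the centre of the KLF4 peak of score 83; CACGTG was in 6.02% of the 32817 RefSeq promoter windows of this length. In Cdkn1a the KLF core lay 28 bp from the centre of the KLF4 peak of score 131. Cdkn1a has another RefSeq start, whose window (chr17:29093519-29093768) held no peak centre of either factor and no CCACCC. In Stat3 it lay 170 bp from the centre of the KLF4 peak of score 334 and 190 bp from that of the HDAC3 peak of score 129. CCACCC was in 28.1% of all windows. The motifs CACGTG and CCACCC did not occur together in any of the 3 windows shown, and a match describes the letters alone.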

How the data were processed

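Peak lists of 1 HDAC3 and 1 KLF4 library were used; the input library entered only through values in these lists. The submitters' processing notes name the tools HOMER, STAR and bcl2fastq, without versions, and the build GRCm38.p5. The authors called, per the file headers, peaks of 185 bp in factor style, separately for each precipitation against 1 input, requiring 4-fold over input and over the surrounding 10000 bp. The libraries held 56787485 (HDAC3) and 61432711 (KLF4) tags. The deposited tag signal is scaled by the authors to 10000000 tags, and further tag columns are scaled to the input. The score, the fold or ratio over input, and the p-value of each peak are the authors' caller's; the p-value and the deposited focus ratio, a fraction, were read and not used.

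Peak centres were assigned to the nearest end of a protein-coding gene on GRCm38.p6, a patch release that keeps the chromosome coordinates of p5; the table has no strand. Overlap meant centres at most 184 bp apart. The code (Python 3.11.15, pandas 2.3.3, scipy 1.17.1) was checked on simulated peaks. No test was run. In each list the text names the highest 5 members, those nearest to Myc, the highest pairs, the members at the edges, and in each gene list up to 3 genes with the highest gene-end score of each factor; further names were chosen after their values were seen. Myc, the gene lists and the rules were chosen with earlier results of these data known.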

Additional observations from a re-analysis of the deposited data

How the results depend on the processing

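With 1 library per antibody no spread between replicates and no left-out library could be had, and neighbouring peaks are not independent. No paired analysis was possible because each antibody had 1 library. Of 63 alternative values over 15 results, 22 stayed within their tolerance and 41 moved. The tolerance was 1.5-fold for counts and densities, and the 95% binomial interval of the reported value for shares and medians. For the moved values the cause was not tested, except that each stricter rule keeps fewer peaks by construction. Counting ends of all annotated genes left 2 HDAC3 and 5 KLF4 members with 2 pairs, an HDAC3 share of 100% and an HDAC3 median score of 37. Keeping peaks at least 8-fold over input left 34 HDAC3 members (23.8 per Mb) and 25 KLF4 members (17.5 per Mb, median score 119), with 9 pairs. Keeping peaks at or above the list median left 35 HDAC3 members (24.5 per Mb) and 25 KLF4 members (17.5 per Mb). Within 100 kb of Myc there were 11 HDAC3 members, with a median score of 49, and 15 KLF4 members; between the flanking genes there were 103 and 69 peaks. Requiring centres at most 50 bp apart left 9 pairs, 14.1% of HDAC3 and 20.9% of KLF4 members. Of the 31 genes acting with MYC, those with an HDAC3 peak numbered 18 within 5 kb of an end, 25 for any nearest peak and 0 at 8-fold. For KLF4 the numbers were 20, 27 and 3. Of the 35 MYC targets they were 23, 25 and 2 with HDAC3, and 26, 29 and 6 with KLF4. Of the 25 genes upstream of Myc they were 17, 23 and 4 with HDAC3, and 18, 24 and 4 with KLF4. Over all protein-coding genes 46.2% had an HDAC3 and 46.0% a KLF4 peak within 5 kb. For any nearest peak these shares were 64.8% and 59.2%, and for a peak within 1 kb at 8-fold 6.76% and 11.0%.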
